A study of Mus musculus with 4 samples.

Results

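The replication-dependent histone genes of the mouse were followed in ATAC-seq peaks of bone marrow-derived macrophages (BMDMs). Overlapping peaks of the 4 libraries (minimum 1 bp) were joined, which gave 60710 regions, and each region took the gene name of its highest peak. A region was counted as a histone region if that name began with Hist1h, Hist2h, Hist3h or Hist4h, which held for 77 of the 60710 regions. Of these, 66 lay in the Hist1 cluster on chromosome 13, 9 in the Hist2 cluster on chromosome 3 and 2 in the Hist3 cluster on chromosome 11. The single Hist4 gene, Hist4h4 on chromosome 6, had no region. By class, 11 regions carried the name of a linker histone gene (H1), 14 of an H2A, 25 of an H2B, 9 of an H3 and 18 of an H4 gene. The name is that of the nearest transcription start site (TSS), so a region can carry a histone name without touching a histone gene.

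Replication-dependent histone genes encode the bulk of the H1, H2A, H2B, H3 and H4 proteins that package newly made DNA. They are short, mostly lack introns, occur in many near-identical copies in a few clusters, and are transcribed mainly in S phase under the coactivator NPAT. Their mRNAs end in a stem-loop bound by SLBP instead of a poly(A) tail, and many H2A and H2B genes stand back to back and share the DNA between their start sites.

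ATAC-seq marks open chromatin by the insertion of adapters by the Tn5 transposase, here with Nextera reagents on nuclei of lysed cells. The BMDMs came from wild-type C57BL/6 mice of 8 to 12 weeks and were grown for 6 days with L929 supernatant, a source of M-CSF. One group was left untreated (control, n = 2) and the other received IL-4 at 20 ng/ml for 1 h (IL-4, n = 2). The sources call the libraries biological replicates, and p-values measure the spread between these libraries. The comparison asks whether a short exposure to IL-4, which activates STAT6, altered accessibility at histone genes.

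The control libraries held 45250 and 41885 peaks and the IL-4 libraries 41978 and 39462. Sequencing depth is unknown because the files hold no reads. Peak score, taken to be −log10 of the q-value, measures the evidence for a peak in its own library and grows with depth. The median score of the 25442 regions shared by all libraries was 12.52 and 11.01 in control and 11.14 and 8.86 in IL-4. Of 8 macrophage marker genes, Cd68, Fcgr1, Lyz2 and Mertk had a promoter peak in every library, and Csf1r and Itgam had a peak outside the promoter in every library. Spi1 and Adgre1 had no peak annotated to them in every library. No marker of T cells, B cells, epithelium, fibroblasts, neutrophils or liver had a promoter peak in any library. Outside the promoter, Cd3d, Ms4a1, Cdh1, Epcam and Apoa1 had a peak in every library, as Csf1r and Itgam did, and no fibroblast or neutrophil marker had one.

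The DNA between the start sites of back-to-back H2A and H2B genes is shown first, because most of the wide histone regions centred on it. There were 14 such pairs in the RefSeq annotation of GRCm38.p6, with 163 to 280 bases between the start sites. Capitals mark the octamer ATTTGCAT, the CCAAT box, the TATA box TATAAA and the H1 box AAACACA on either strand. Each stretch is the plus strand from 5′ to 3′, with the first gene running to the left and the second to the right. The first pair had the highest mean score of all pairs with an octamer, the second was the longest region, and the third had the largest negative change upon IL-4. The fourth pair had unique sequence but no peak in any library, and the fifth had no peak and lay in duplicated DNA.
Hist1h2ah/Hist1h2bk, chr13:22035644-22035820: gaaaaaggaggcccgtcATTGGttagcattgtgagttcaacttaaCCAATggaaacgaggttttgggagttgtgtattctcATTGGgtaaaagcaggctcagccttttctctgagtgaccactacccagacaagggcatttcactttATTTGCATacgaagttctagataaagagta
Hist1h2ac/Hist1h2bc, chr13:23683960-23684198: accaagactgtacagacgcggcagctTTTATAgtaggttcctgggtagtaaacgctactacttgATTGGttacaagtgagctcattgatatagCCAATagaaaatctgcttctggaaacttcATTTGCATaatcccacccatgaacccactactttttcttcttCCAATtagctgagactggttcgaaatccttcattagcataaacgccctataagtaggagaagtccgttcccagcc
Hist2h2ac/Hist2h2be, chr3:96220881-96221071: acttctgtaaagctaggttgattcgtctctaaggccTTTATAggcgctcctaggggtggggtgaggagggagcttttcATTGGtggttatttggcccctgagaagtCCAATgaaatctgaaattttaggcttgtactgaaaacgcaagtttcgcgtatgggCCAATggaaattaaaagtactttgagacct
Hist1h2ak/Hist1h2bn, chr13:21753913-21754075: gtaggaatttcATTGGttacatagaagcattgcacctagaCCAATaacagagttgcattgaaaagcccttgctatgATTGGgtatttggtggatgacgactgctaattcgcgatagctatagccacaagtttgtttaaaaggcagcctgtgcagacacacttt
Hist1h2bq/Hist1h2ao, chr13:21810200-21810366: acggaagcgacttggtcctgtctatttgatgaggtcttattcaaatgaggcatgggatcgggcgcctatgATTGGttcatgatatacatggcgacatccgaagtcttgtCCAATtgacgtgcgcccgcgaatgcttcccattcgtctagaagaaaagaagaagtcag

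All 14 stretches held at least 1 CCAAT box and 6 held an octamer. The octamer, a binding motif of OCT1, was present in 5 of the 10 pairs with a peak in all 4 libraries. The H1, H3 and H4 genes have promoters of their own, and the 150 bases upstream of the start site are shown, on the strand of the gene, for the H1, H3 and H4 gene whose promoter region scored highest.
Hist1h1e, chr13:23622559-23622708, minus strand: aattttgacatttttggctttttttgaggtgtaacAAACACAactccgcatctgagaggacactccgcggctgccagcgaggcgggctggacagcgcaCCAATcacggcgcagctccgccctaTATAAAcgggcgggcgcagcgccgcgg
Hist1h3b, chr13:23752195-23752344, plus strand: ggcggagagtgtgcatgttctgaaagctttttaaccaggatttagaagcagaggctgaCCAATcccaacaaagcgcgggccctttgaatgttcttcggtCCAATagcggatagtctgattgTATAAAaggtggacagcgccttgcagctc
Hist1h4j, chr13:21734884-21735033, plus strand: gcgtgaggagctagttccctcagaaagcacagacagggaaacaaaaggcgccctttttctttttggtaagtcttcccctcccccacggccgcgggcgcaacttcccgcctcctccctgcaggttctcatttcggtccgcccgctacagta

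The stretch of Hist1h1e held an H1 box, a CCAAT box and a TATA box, and that of Hist1h3b a pair of CCAAT boxes and a TATA box. The stretch of Hist1h4j held none of these letters. Around the start sites of all 70 histone genes in RefSeq, in windows from 250 bases upstream to 50 bases downstream, the CCAAT box (CCAAT, both strands) was found in 6 of 6 H1, 20 of 20 H2A, 19 of 19 H2B and 11 of 12 H3 windows, but in 4 of 13 H4 windows. The octamer was found in 8 of 20 H2A and 9 of 19 H2B windows and in no H1, H3 or H4 window. The H1 box occurred in 5 of 6 H1 windows and in no H4 window. Among 32851 RefSeq promoter windows of the same length, 37.4% held a CCAAT box, 1.74% an octamer, 13.6% the TATA box and 7.18% the H1 box, whereas the histone windows as a whole held them in 85.7%, 24.3%, 54.3% and 17.1%. Windows of back-to-back genes overlap, so these counts are not independent. The STAT6-type motif, TTC and GAA set 4 bases apart on either strand, was found in 8.57% of histone windows and 6.95% of all windows. A match is a description of letters and not a binding site.

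**Figure D1:**
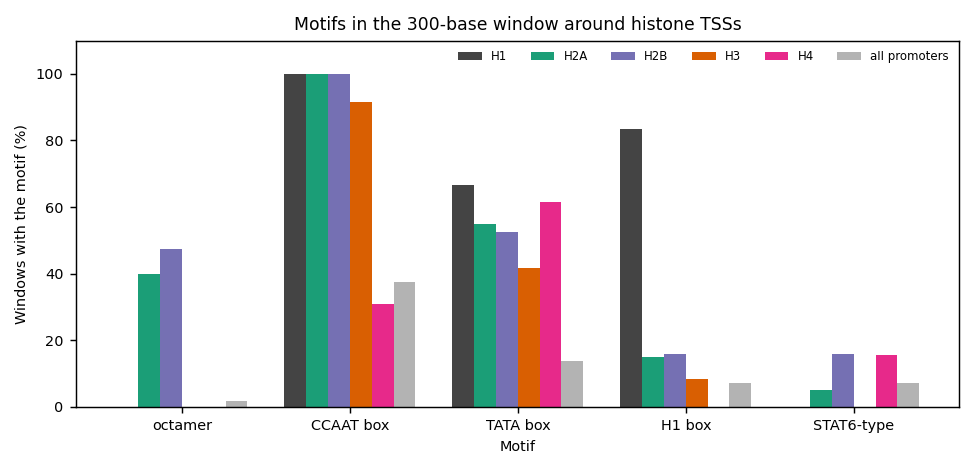
Share of 300-base windows around start sites (y axis, percent) that held each motif (x axis), for the 5 histone classes (coloured bars) and for all RefSeq promoters (grey bars). The octamer appears in H2A and H2B windows, the H1 box stands at 83.3% of H1 windows, and the CCAAT box at 30.8% of H4 windows is the lowest among the classes.

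Most of the regions with a histone name lay on histone genes. Of the 77 regions, 42 overlapped an exon or the start window of a histone gene, 11 overlapped a tRNA gene and 24 overlapped neither. Of the 42 regions on histone genes, 33 reached a start window and 10 of these covered both start sites of a back-to-back pair. Regions with a peak in all 4 libraries numbered 31 of 42 on histone genes (73.8%), 4 of 11 on tRNA genes and 5 of 24 elsewhere (20.8%). In all, 40 of 77 histone regions (51.9%) had a peak in every library, against 41.9% of all regions. Within 1000 bp of a TSS the share was 30 of 43 histone regions, against 60.6% of all such regions. Among the 37 other histone regions, 4 had a peak in 3 libraries, 14 in 2 and 19 in 1, and the regions of a single library scored 2.33 to 7.41 with a median of 3.34. Accessibility in bulk nuclei cannot tell apart fewer cells with an open site and less opening per cell.

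Histone regions were longer than most. Their median length was 281 bp against 209 bp over all regions, and 10 of 77 exceeded 800 bp, against 0.710% of all regions. Each of these 10 had a peak in all 4 libraries, and 8 of them spanned both start sites of an H2A and H2B pair. The longest, at chr13:23683491-23684629, covered 1139 bp over Hist1h2ac and Hist1h2bc.

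The distance of the peaks to the start site was described by class. Over all libraries, H4 peaks within 1000 bp of the start site had a median distance of 87 bp downstream, with 28 of 35 peaks inside the gene. In the single libraries the median of the H4 peaks was 86 and 78 bp in control and 109 and 85.5 bp in IL-4. H1 peaks were similar, with a median of 84 bp and 12 of 15 inside the gene. The H1 median was 105.5 and 117 bp in the control and 111 and 56 bp in the IL-4 libraries. Counts over all libraries take peaks of the same gene in different libraries as separate peaks, so they are not independent. H2B peaks had a median of −4 bp, with 28 of 57 inside the gene. Some lay between the start sites of a pair and others over the coding sequence. The peaks of Hist1h2be, which stands in no pair, all lay upstream of its start site, some of them on the Hist1h1e gene. In the single libraries the H2B median was −17.5 and −11 bp in control and −19 and 28 bp in IL-4. H2A peaks had a median of 49 bp over all libraries, but −80.5 and 55 bp in the control and 30 and 103 bp in the IL-4 libraries, so the sign differed between the control libraries. H3 peaks had a median of 24 bp, with 23 and 54.5 bp in control and 11.5 and 55 bp in IL-4. The distances were given in the files and run from the start site to the centre of the peak. A peak within a back-to-back pair is assigned to only one of the start sites, by distance. How far upstream it appears thus depends partly on this naming, which does not act on genes with a promoter of their own. H2A and H2B distances are therefore not directly comparable with those of the other classes.

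**Figure D2:**
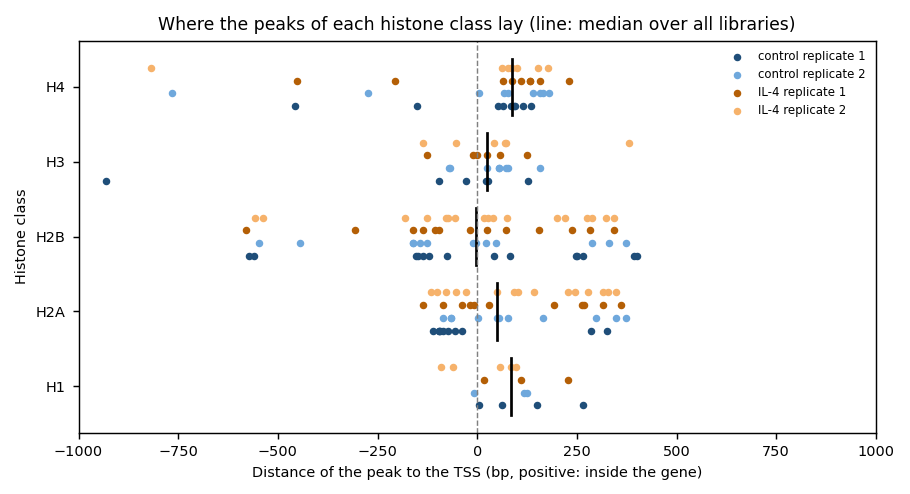
Distance of each histone peak to its start site (x axis, bp, positive values inside the gene) by class (y axis) in the 4 libraries (colours), with a black line at the median of the class. H4 and H1 peaks lie mainly inside the gene, at medians of 87 and 84 bp, and H2B peaks lie on both sides of the start.

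Not every histone gene had a peak. A peak in all 4 libraries reached the start window of 33 of the 70 histone genes (47.1%), compared to 26% of all RefSeq promoter windows. The window of 26 genes had no peak in any library, and 11 had a peak in 1 to 3 libraries. One of the latter was the pseudogene Hist1h2al on chromosome 13, far from the cluster, whose peaks (7.86 and 8.24 in control and 6.29 in IL-4 replicate 1) carried another gene name and were no members. The number of windows with a peak was 40 in both control libraries and 38 in both IL-4 libraries. By class, the window was reached in all libraries for 2 of 6 H1, 10 of 20 H2A, 13 of 19 H2B, 4 of 12 H3 and 4 of 13 H4 genes. In 10 back-to-back pairs the same peaks reached the windows of both genes, so the counts of windows are not independent.

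Among the genes without a peak, 10 lay in DNA that occurs more than once in the genome. To measure this, the share of 32-base words of each window that occur at least 2 times on chromosomes 1 to 19, X and Y was computed. In Hist1, Hist1h2bq, Hist1h2ao, Hist1h4m, Hist1h4n, Hist1h2ap and Hist1h2br had 94.4% to 100% repeated words, and in Hist2, Hist2h3c2, Hist2h2aa2, Hist2h2aa1 and Hist2h3c1 had 69.9% to 88.1%. None of these 10 windows had a peak in any library. The other 60 windows had at most 29.0% repeated words, and 33 of them (55.0%) had a peak in all 4 libraries. Over all RefSeq promoters the shares with a peak in every library were 5.91% of 2352 windows with over 50% repeated words and 27.5% of the other windows. How the authors treated reads that map to several places is not given in the sources used here, and the part of mapping in these counts was not tested.

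The remaining 16 genes without a peak at the start had unique windows. They comprised 3 H2A, 4 H2B, 3 H3, 5 H4 genes and 1 H1 gene. Hist1h1t, Hist1h2ba and Hist1h2aa, which encode testis variants of H1, H2B and H2A, were among them. The others included the pair Hist1h2ak and Hist1h2bn printed above, the H4 genes Hist1h4c and Hist1h4h, and Hist4h4, the H4 gene outside the clusters. Of these 16 windows, 12 held a CCAAT box and 4 an octamer, so genes with these letters were found on both sides. Hist1h4b and Hist1h2ba had no peak in the start window, but each had a region over its coding part in all libraries, described below.

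**Figure D3:**
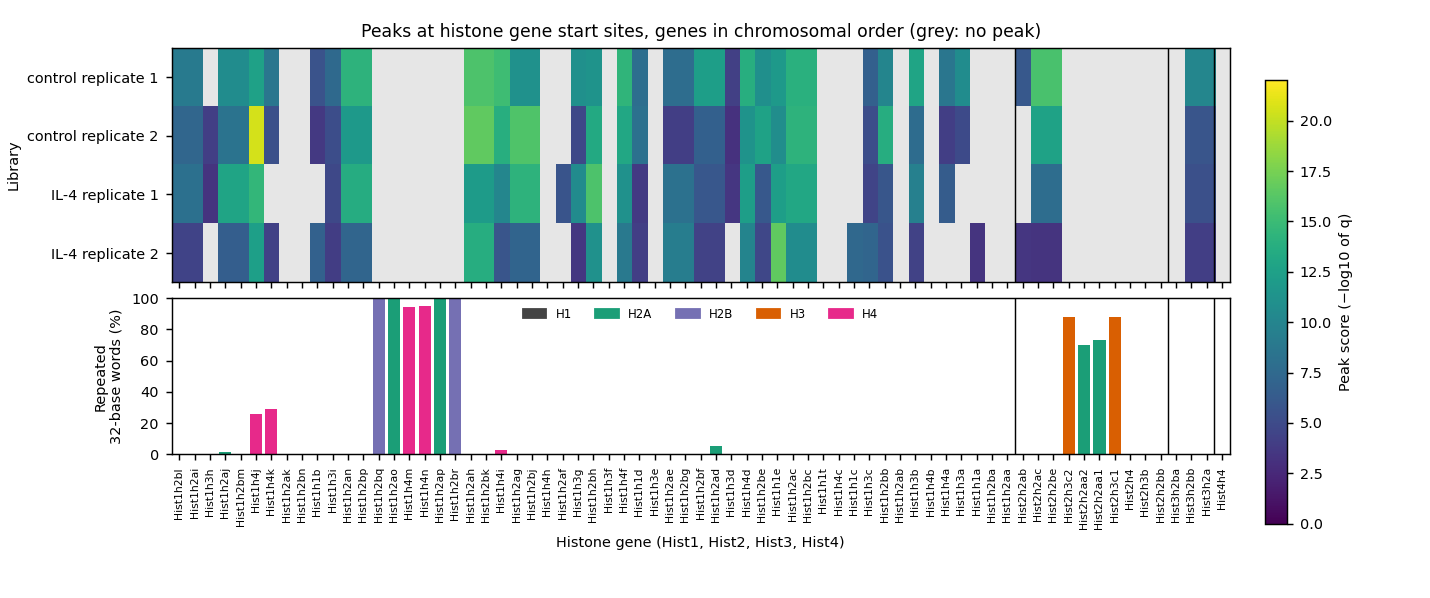
Peak score at the start window of each histone gene in the 4 libraries (upper panel, colour scale in −log10 of q, grey where no peak was called) and the share of repeated 32-base words in that window (lower panel, percent). Genes follow their order along the Hist1, Hist2, Hist3 and Hist4 loci, without the distant pseudogene Hist1h2al. The tall bars from Hist1h2bq to Hist1h2br and from Hist2h3c2 to Hist2h3c1 stand under columns that are grey in all libraries.

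The regions that were called also contained much repeated sequence. Repeated words made up over 20% of 46 of the 77 histone regions, against 6.04% of all regions. The median was 47.8% for the 42 regions on histone genes, 29.1% for those on tRNA genes and 0% for those on neither. Scores of regions with repeated words are therefore uncertain where reads can belong to another copy.

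Among the linker histone regions, the highest was at the start of Hist1h1e, which encodes a major somatic H1. Hist1h1e (chr13:23622179-23622643) scored 11.88 and 10.78 in control and 12.35 and 16.62 in IL-4. Both IL-4 scores lay above both control scores, and the log2 change was 0.56 with a standard error of 0.39 (limma adjusted p = 0.758). Hist1h1d (chr13:23554946-23555359) scored 7.96 and 8.21 in control and 3.75 and 4.07 in IL-4. Here both IL-4 scores lay below both control scores, and the log2 change was −0.80 ± 0.54 (standard error; limma adjusted p = 0.742). The region 1057 bp downstream of the Hist1h1b start (chr13:21779383-21779641) scored 5.73 and 5.93 in control and 7.92 and 4.89 in IL-4. Hist1h1c and Hist1h1a had a start peak in IL-4 replicate 2 alone, at 7.41 and 3.30.

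H2A and H2B regions are described together where they share a promoter. The region of Hist1h2ah and Hist1h2bk (chr13:22035185-22036189), printed above, scored 15.82 and 16.67 in control and 12.07 and 13.72 in IL-4, with a log2 change of −0.13 (standard error 0.36). The region of Hist1h2ac and Hist1h2bc scored 13.99 and 14.18 in control and 13.23 and 10.68 in IL-4, with a log2 change of −0.01 (standard error 0.38). These pairs were among the highest histone promoters in both groups, and both changes were smaller than their errors. The region of Hist1h2an and Hist1h2bp (chr13:21786892-21787911) scored 14.25 and 11.79 in control and 13.60 and 7.17 in IL-4. Of the 14 pairs, 10 had a peak in every library and 4 in none.

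Hist2h2ac and Hist2h2be, the back-to-back pair of the Hist2 cluster, gave the largest difference between the groups with all 4 libraries. Their shared region (chr3:96220506-96221177) scored 15.72 and 12.68 in control (mean 14.2 ± 2.15, SD, n = 2) and 7.85 and 3.33 in IL-4 (mean 5.59 ± 3.20, SD, n = 2). Both IL-4 scores were lower than both control scores. The log2 change was −1.26 with a standard error of 0.49, and −0.85 and −1.67 between libraries of the same replicate number. Its limma p of 0.0128 was the lowest of all histone regions, but the limma adjusted p was 0.447, so the difference did not pass the threshold of 0.05. Its size and its rank rested on single libraries and on the merging. The log2 change was −0.78 without IL-4 replicate 2, where the Hist2h2bb region was lowest at −1.49, and −0.64 when peaks within 500 bp were merged, where the Hist2h2bb region was lowest at −0.93. Without control replicate 1 it was −1.20, slightly smaller than the −1.22 of the region 6669 bp from Hist1h2ah.

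The other H2A and H2B regions among the 5 largest falls lay away from pairs. A region 6669 bp from the Hist1h2ah start (chr13:22028721-22029035) lay on no histone or tRNA gene, but 188 bp from the nearest tRNA gene. It scored 8.03 and 8.99 in control and 3.50 and 3.73 in IL-4 (log2 change −1.0, standard error 0.54, limma adjusted p = 0.644). The region named Hist1h2be at −125 bp (chr13:23621124-23621391) scored 10.93 and 12.66 in control and 6.06 and 4.71 in IL-4 (log2 change −0.90, standard error 0.50, limma adjusted p = 0.648). It lies at the start of the long spliced Hist1h2be transcript, beside the Hist1h1e gene. The coding exon of Hist1h2be lies in a different region, at chr13:23585572-23586088, which carries the name of Hist1h4d and scored 6.74 and 6.73 in control and 7.27 and 7.08 in IL-4. A region 8474 bp from the Hist2h2bb start (chr3:96278063-96278296) scored 7.87 and 9.71 in control and 2.95 and 5.04 in IL-4, a log2 change of −0.93 ± 0.55 (SE, limma adjusted p = 0.679). In all of these but the Hist1h2be coding exon, the scores of both IL-4 libraries were the lower ones. This also held for smaller falls. The pair Hist1h2bf and Hist1h2ad scored 12.37 and 6.75 in control and 5.93 and 4.33 in IL-4 (log2 change −0.62, standard error 0.52). The start of Hist1h2bb, in no pair, scored 10.05 and 13.7 in control and 5.87 and 5.52 in IL-4 (log2 change −0.79, standard error 0.49). Changes were positive in 3 of 9 shared H2A and 6 of 13 shared H2B regions.

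The largest positive values were smaller than the largest negative ones. The pair Hist1h2ae and Hist1h2bg (chr13:23570757-23571593) scored 7.89 and 6.01 in control and 8.23 and 9.32 in IL-4, a log2 change of 0.59 ± 0.50 (SE, limma adjusted p = 0.809). In the Hist3 cluster, the region over the coding part of Hist3h2a (chr11:58954812-58955186) scored 6.00 and 5.69 in control and 7.0 and 8.99 in IL-4, a log2 change of 0.69 ± 0.52 (SE, limma adjusted p = 0.781). The neighbouring region over the shared start of Hist3h2a and the pseudogene Hist3h2bb (chr11:58954459-58954761) scored 10.14 and 5.80 in control and 5.40 and 4.06 in IL-4, with a log2 change of −0.46 (standard error 0.53). The start and the coding part of Hist3h2a thus had values of opposite sign, and neither passed the test. Hist1h2ba, the testis H2B gene, scored 4.38 and 12.94 in control and 12.99 and 6.43 in IL-4 over its coding part, where 82.1% of the words were repeated. Its log2 change of 0.51 (standard error 0.51) came from libraries that overlapped, with 1.71 and −0.68 between libraries of the same number.

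H3 regions were few and moderate. The highest, Hist1h3b (chr13:23752155-23752668), scored 12.89 and 7.77 in control and 9.58 and 4.36 in IL-4, and the groups overlapped (log2 change −0.41, standard error 0.50, limma adjusted p = 0.886). Hist1h3g (chr13:23535177-23535505) scored 11.05 and 4.79 in control and 10.59 and 3.53 in IL-4. Hist1h3c (chr13:23745270-23745669) scored 6.71 and 5.17 in control and 4.47 and 7.17 in IL-4. The promoter of Hist1h3a (chr13:23762115-23762508) was found in both control libraries, at 10.70 and 4.94, and in no IL-4 library.

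The strong H4 regions were centred inside the genes. Hist1h4j (chr13:21734964-21735578) scored 12.57 and 20.59 in control and 14.57 and 12.38 in IL-4, with a log2 change of −0.04 (standard error 0.36). Hist1h4d (chr13:23581409-23581971) scored 13.77 and 11.33 in control and 12.32 and 9.92 in IL-4, with a log2 change of 0.07 (standard error 0.40). Hist1h4f (chr13:23551347-23551798) scored 14.39 and 13.23 in control and 11.13 and 8.88 in IL-4, with a log2 change of −0.24 (standard error 0.40). The changes at these 3 regions were within their errors. Hist1h4i (chr13:22041003-22041441), singled out after its values were seen, scored 15.14 and 13.79 in control and 10.14 and 5.76 in IL-4. Both IL-4 scores were the lower ones, and its log2 change of −0.69 ± 0.43 (SE, limma adjusted p = 0.710) was the most negative among the H4 regions and larger than its error. Hist1h4b (chr13:23757004-23757309) had the largest positive value of all histone regions, with 3.97 and 6.03 in control, and 10.08 and 6.09 in IL-4. Its log2 change was 0.93 ± 0.54 (SE, limma adjusted p = 0.668). The value depended on single libraries, since it was 0.49 without control replicate 1, where Hist1h2bg was highest at 1.20, and 0.74 without IL-4 replicate 1, where a Hist1h2ab region was highest at 1.34. Without control replicate 2 it was 1.318, just below Hist1h2ba. Repeated words made up 72.7% of that region.

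**Figure D4:**
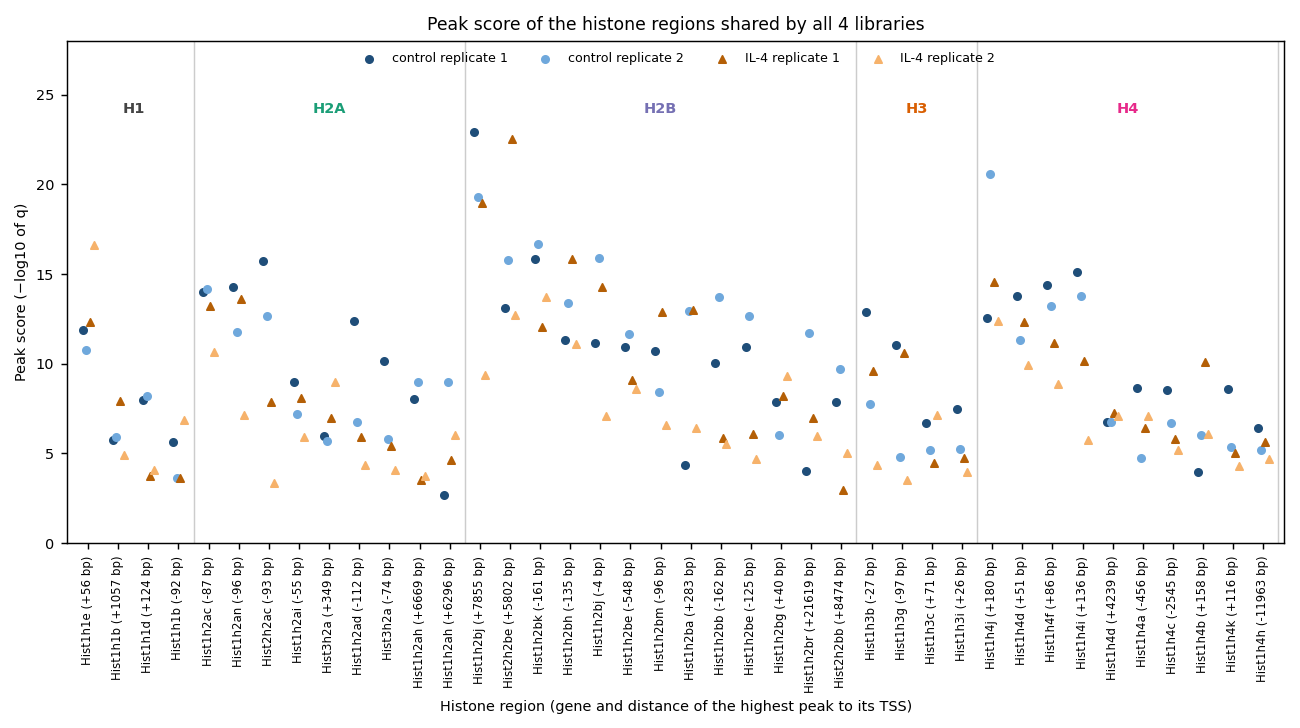
Peak score (y axis, −log10 of q) of the 40 histone regions with a peak in all 4 libraries, by class and in falling order of mean log2 score within the class (x axis). Circles are control libraries and triangles are IL-4 libraries. The scores shown are not normalised. Both triangles lie above both circles in 5 of the 40 regions (12.5%), against 8.83% of all regions. They lie below both circles in 17 (42.5%), against 29.3% of all regions, and the Hist2h2ac region is one of these.

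The strongest histone regions of all were not histone promoters. The region 7855 bp from the Hist1h2bj start (chr13:22050626-22051379) scored 22.92 and 19.28 in control and 18.94 and 9.37 in IL-4, and it contains the serine tRNA gene n-TSgct5. Its log2 change was −0.45 (standard error 0.33, limma adjusted p = 0.773). The region 5802 bp from the Hist2h2be start (chr3:96226770-96227080) scored 13.13 and 15.76 in control and 22.55 and 12.71 in IL-4, with no histone or tRNA gene in it, and its log2 change was 0.45 (standard error 0.34). tRNA genes, which RNA polymerase III transcribes, overlapped 11 of the 77 histone regions (14.3%) against 0.282% of all regions. The clusters on chromosome 13 lie next to arrays of tRNA genes, and these regions carried a histone name by distance to the nearest TSS. Of the 11, 4 had a peak in every library, among them the regions of the isoleucine tRNA genes n-TIaat11 (4.0 and 11.69 in control, 6.97 and 5.95 in IL-4) and n-TIaat7 (2.67 and 8.99 in control, 4.63 and 6.03 in IL-4).

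IL-4-only regions, with a peak in both IL-4 libraries and in no control library, numbered 4 of 77 (5.19%) against 2.53% of all regions. Of these, 2 contained tRNA genes. One was the methionine tRNA gene n-TMcat7 at chr13:21710925-21711124 (scores 11.86 and 3.79), named for Hist1h2bl, and the other was the glutamine tRNA gene n-TQttg5 at chr13:23519600-23519736 (7.69 and 4.70), named for Hist1h4h. The other two lay at −9444 bp from the Hist1h1c start at chr13:23729270-23729558 (5.34 and 2.49) and over the coding part of Hist2h2ab at chr3:96219982-96220163 (3.46 and 7.53), where 74.8% of the words were repeated. Control-only regions numbered 3 of 77 (3.90%) against 4.33% of all regions. They were the Hist1h3a promoter, a region 11715 bp from the Hist1h2be start at chr13:23609299-23609432 (4.38 and 4.95) and a region 6110 bp from the Hist2h2be start at chr3:96227176-96227400 (5.50 and 4.10). The counts of both kinds were small and changed with the merging distance, to 0 and 1 when peaks within 500 bp were merged.

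In the Hist2 cluster, 3 of the 9 regions had a peak in all 4 libraries, namely the shared start of Hist2h2ac and Hist2h2be, the strong region 5802 bp from Hist2h2be and the region 8474 bp from Hist2h2bb. The start of Hist2h2ab (chr3:96219692-96219948) was accessible in 1 library of each group, namely the first control (6.05) and the second IL-4 library (3.47). Regions 6426 bp from Hist2h2be, 7282 bp from Hist2h4 and 7919 bp from Hist2h2bb were seen in 1, 2 and 1 libraries, with scores of 2.05 to 5.20. Within the 58.6 kb spanned by the Hist2 regions there was no region with another gene name. The Hist1 regions fell into a block of 341 kb and a block of 418 kb, in which 21 and 9 regions had other names, such as Zfp184 and Hfe.

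Across the 40 shared histone regions, the limma test on quantile-normalised log2 scores called none at an adjusted p below 0.05, and 6 of 25442 regions (0.0236%) over the genome. At an unadjusted limma p below 0.05 there was 1 of 40 histone regions, the Hist2h2ac region, against 8.28% of all regions. The log2 changes ranged from −1.26 to 0.93, and 22 were negative and 18 positive. Their median was −0.05, against 0.00 over all regions, and their median standard error was 0.51, so that most changes were smaller than their error. By class, the median change was 0.34 over 4 H1, −0.15 over 9 H2A, −0.11 over 13 H2B, −0.17 over 4 H3 and 0.01 over 10 H4 regions. The class follows the name of the region, so all of these medians but that of H3 include regions on no histone gene. Some regions also lay on a gene of another class. The H2B median of −0.11 is the value of the region at −548 bp from Hist1h2be, which lies on the H1 gene Hist1h1e. The H4 set holds the coding exon of the H2B gene Hist1h2be (log2 change 0.35). Both IL-4 scores were above both control scores in 9 of 40 histone regions (22.5%), against 19.2% of all regions, and below them in 14 of 40 (35.0%), against 18.6% of all regions. Without normalisation of the scores these counts were 5 (12.5%) and 17 (42.5%), against 8.83% and 29.3% of all regions. A change of the same sign was seen between both pairs of same-numbered libraries in 27 of 40 regions (67.5%), against 53.7% of all regions.

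**Figure D5:**
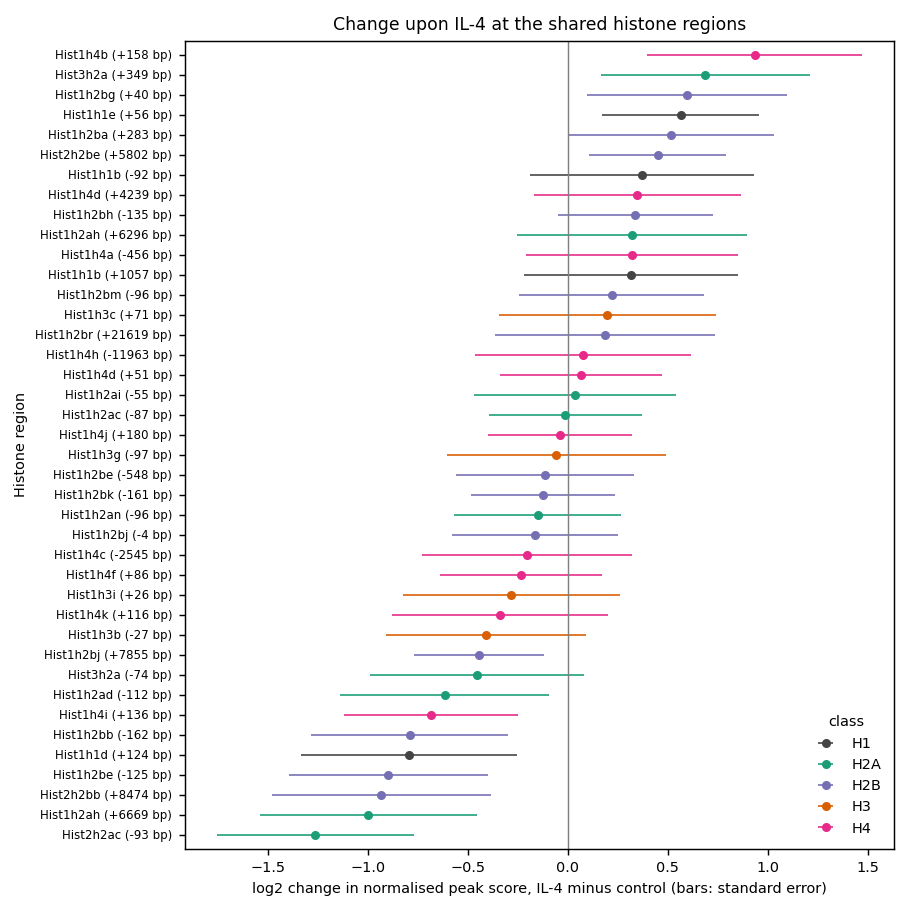
log2 change in normalised peak score, IL-4 minus control (x axis, points, with bars for the standard error), at each of the 40 shared histone regions (y axis), coloured by class. Values run from −1.26 at Hist2h2ac to 0.93 at Hist1h4b, and none passed the adjusted threshold.

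The level of the histone regions within each library was also compared with that of other regions. Their median score was 10.1 and 8.99 in control (mean 9.54 ± 0.781, SD, n = 2) and 8.02 and 6.26 in IL-4 (mean 7.14 ± 1.24, SD, n = 2), a difference of −2.41. The median of all shared regions was lower in the IL-4 libraries too, as given above, and the ratio of the histone median to the overall median was 0.806 and 0.817 in control and 0.719 and 0.707 in IL-4. Both IL-4 values lay below both control values. With 2 libraries per group an exact permutation test cannot give a p below 0.3333, and without IL-4 replicate 2 the difference in median score was −1.10 and without IL-4 replicate 1 it was −3.09. Histone regions within 1000 bp of a TSS had lower scores than other such regions, with medians of 10.9, 9.59, 9.33 and 6.74 in the 4 libraries, against 13.9, 12.8, 13.2 and 10.4.

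STAT6-type letters were present in 6 of the 77 histone regions (7.79%), against 7.22% of all regions. All 6 were shared by the 4 libraries, with log2 changes from −1.0 to 0.35, and none of the 4 IL-4-only regions held them.

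The genes that supply histones were examined from fixed lists. All 11 genes of histone transcription and 3′ end processing had a region within 1000 bp of the TSS, and 10 had one in every library. Npat, the coactivator of histone genes, scored 34.06 and 30.81 in control and 29.54 and 24.20 in IL-4 (log2 change −0.16, standard error 0.22). Slbp, which encodes the stem-loop binding protein, scored 20.63 and 13.45 in control and 21.63 and 9.18 in IL-4 (log2 change −0.03, standard error 0.35). Both promoters scored above the median histone region near a TSS in each library, which is given above, and neither changed beyond its error. Other regions of this list had values beyond their errors in both directions. Cstf2, a subunit of the cleavage stimulation factor, scored 14.99 and 13.41 in control and 27.38 and 14.60 in IL-4 (log2 change 0.71, standard error 0.33), where 1 IL-4 library stood far above the others. Cpsf2, a subunit of the cleavage and polyadenylation factor, scored 11.78 and 6.83 in control and 14.96 and 10.99 in IL-4 (log2 change 0.75, standard error 0.43). A region 559 bp from the start of Eri1, an exonuclease that acts on histone mRNA ends, scored 2.88 and 3.96 in control and 5.96 and 5.36 in IL-4 (log2 change 0.94, standard error 0.55), whereas the one at its start had a log2 change of −0.02. On the negative side, Zfp473 scored 26.75 and 15.38 in control and 13.15 and 12.53 in IL-4 (log2 change −0.47, standard error 0.34). Casp8ap2 scored 38.07 and 32.21 in control and 29.25 and 24.24 in IL-4 (log2 change −0.29, standard error 0.21). Of the 11 shared regions of this list, 5 had positive and 6 negative changes, and limma called none, with a lowest adjusted p of 0.567 at Cstf2.

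In the other lists limma called no region either. Histone chaperones had 8 shared regions with a median change of 0.01. The largest value was at a region of Nasp, a chaperone of linker and core histones, with 8.09 and 7.27 in control and 15.65 and 12.62 in IL-4 (log2 change 1.11, standard error 0.44, limma adjusted p = 0.453). Other Nasp regions near a TSS had a peak in 3 libraries each. One scored 5.12 in control replicate 1 and 6.41 and 2.46 in IL-4. Another scored 5.49 in control replicate 2 and 5.55 and 4.51 in IL-4. The replication-independent histone genes had 9 shared regions, 3 with positive and 6 with negative changes, and a median of −0.12. Cenpa, the centromeric H3, had the lowest value, with 19.89 and 16.48 in control and 12.28 and 5.80 in IL-4 (log2 change −0.87, standard error 0.40, limma adjusted p = 0.556), whereas H2afz scored 38.57 and 32.61 in control and 34.36 and 30.43 in IL-4 (log2 change −0.04, standard error 0.20). Cell cycle and replication genes had 16 shared regions for 14 of 17 genes, 10 with positive and 6 with negative changes, and a median of 0.04. Ccna2, the cyclin of S phase, scored 34.16 and 39.28 in control and 43.85 and 33.31 in IL-4.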

How the data were processed

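ATAC-seq peak lists of 4 libraries were analysed. According to the submitters' processing notes, BWA 0.7.10, SAMtools 0.1.19, MACS2 2.0.10 and HOMER 4.2 were used on mm10, and per the study's methods the authors called peaks in each library and removed blacklisted regions. The deposited peak score has no stated unit and was read as −log10 of the q-value from its lowest values (1.3 or 1.32). Tn5 shifting and the handling of duplicate reads are not given in the sources used here. Nuclear peaks (chromosomes 1 to 19, X, Y) were merged at an overlap of 1 bp, and a region took the highest score per library. Log2 scores of regions in all 4 libraries were quantile-normalised and fitted with limma 3.58.1 in R 4.3.3 (trend, Benjamini-Hochberg adjustment over 25442 regions). The fit was tested on simulated data with changes far larger than those at the histone regions, so that test does not cover changes of their size. Python 3.11.15 was used otherwise. Repeated words, motifs, tRNA genes and start sites came from GRCm38.p6 with its RefSeq annotation (403 tRNA genes), and RefSeq's promoter table held 62 of the 70 histone genes. Named regions were the 3 highest per class, the 5 largest changes each way, group-only regions and all Hist2 and Hist3 regions, with others singled out after their values were seen. Members and lists were chosen with earlier results of these data known.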

Additional observations from a re-analysis of the deposited data

How the results depend on the processing

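Limma called 0 histone regions under the 16 alternatives, but at most 14 regions over the whole genome and 0 under 5 of them, so this says nothing about stability. With peaks above the pooled median score (7.37), 10 histone regions were in all 4 libraries, 1 was higher and 3 were lower in both IL-4 libraries, 0 were IL-4-only and 5 control-only. Merging within 500 bp left 0 IL-4-only and 1 control-only regions, and histone regions within 1000 bp of the TSS gave 1 of each. The median log2 change was −0.01 (−0.0067) with summed scores and −0.26 (−0.2557) without normalisation, where the median of all regions was −0.21 and 5 histone regions were higher in both IL-4 libraries. With missing peaks at the lowest score 14 were higher. When 1 library was left out, in which case a lone library was assumed to vary like the other group, ranges were −0.1544 (without control replicate 1) to 0.0107 (without control replicate 2) for the median log2 change, 10 to 15 regions higher and 15 to 22 lower in IL-4 (25.0% to 37.5% and 37.5% to 55.0%, against 34.3% to 35.1% and 33.7% to 34.6% of all regions), 5 to 9 IL-4-only, 4 to 11 control-only, 40 to 42 in all remaining libraries and −3.09 to −1.10 (−1.095) for the difference in median peak score. Of 151 refitted changes of the 10 regions with the largest values, 149 kept their sign, but sizes moved. This count overstates stability. The replicate block, the fit without a variance trend and the alternatives that only redefine histone regions leave these changes as they were. The regions were also chosen by their size in these data. With 1 library left out, values ran from −1.75 to −0.78 for Hist2h2ac, −1.49 to −0.39 for Hist2h2bb, −1.22 to −0.76 for Hist1h2ah, −1.02 to −0.57 for Hist1h1d, 0.21 to 0.92 for Hist1h1e, 0.36 to 1.20 for Hist1h2bg, 0.36 to 1.03 for Hist3h2a and 0.49 to 1.318 for Hist1h4b. Merging within 500 bp brought Hist1h2ah to −0.42 and Hist3h2a to 0.29. The Hist1h2be value at −125 bp became 0.45 when peaks within 500 bp were merged, since it then joined its neighbours, and that of Hist1h2ba ran from −0.36 without control replicate 1 to 1.34 without control replicate 2.

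Replicate numbers are shared by the groups in the labels, and the differences between replicates 1 and 2 of the groups correlated with r = 0.0068 over regions. The scores thus showed no replicate effect common to both groups. A correlation of noisy scores cannot tell whether libraries of the same number were prepared together. With a replicate block, 0 histone regions passed, the median log2 change was −0.0492, and 14 instead of 6 of all regions passed. Depth is unknown, so a region without a peak is one in which none was detected, and with standard errors of 0.33 to 0.57 only large changes could have passed.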
